A study of Mus musculus with 8 samples.

Results

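The genes described here were 10 components of the machinery that carries a cell through G1, the phase before DNA replication: the D-type cyclins Ccnd2 and Ccnd3, the E-type cyclins Ccne1 and Ccne2, the kinases Cdk4, Cdk6 and Cdk2, and the kinase inhibitors Cdkn1b, Cdkn2c and Cdkn2d. They were chosen by symbol, as the 10 of 54838 genes in the count table whose Ensembl identifiers carry these names, and their positions are given on GRCm38. Their RNA levels were read in 4 Vehicle and 4 AG636 samples of acute myeloid leukaemia (AML) cells taken from mice. Both groups held cells that express the RUNX1-RUNX1T1 fusion, on a C57BL/6 background, transplanted into Ptprca recipients that the labels give as sub-lethally irradiated. The methods of the study describe irradiation only for its other leukaemia models. AG636, an inhibitor of the pyrimidine synthesis enzyme DHODH, was given b.i.d. by oral gavage at 100 mg/kg, and the study describes a short exposure of 1 day. The recipients had received thawed cells of an already established leukaemia, which limits the model to the tumour from which those cells came. The cells were sorted for high cKit, and the labels name bone marrow and spleen without saying which sample came from which tissue. No age is given. The legend of the study names fewer mice per group than the 4 samples used here, so samples may share a mouse, and p-values then measure partly technical spread.

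In G1, D-type cyclins bind and activate Cdk4 and Cdk6, and E-type cyclins bind and activate Cdk2. These kinases phosphorylate the retinoblastoma protein pRB and its relatives, which releases E2F factors to transcribe genes for DNA replication. The INK4 proteins, among them the products of Cdkn2c (p18Ink4c) and Cdkn2d (p19Ink4d), bind Cdk4 and Cdk6, whereas p27Kip1, the product of Cdkn1b, belongs to the CIP/KIP family and inhibits cyclin E-Cdk2 complexes. Cdk6 and the D-type cyclins are well known for their part in the proliferation of blood progenitors and leukaemias.

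Levels of 4 of the 10 genes differed between the groups. By the fitted folds, both changed inhibitors rose in AG636, Cdkn2d to 1.71-fold and Cdkn1b to 1.43-fold of the Vehicle level, and both changed kinases fell. Cdk4 fell by 29.3% and Cdk2 fell by 23.1%. By the same test, limma-voom with an adjusted p under 0.05, 14.0% of the 10911 genes tested were called, 5.47% higher and 8.49% lower. Of these calls 60.8% were lower, and 38.3% were lower when libraries were scaled by size alone. The 4 cyclins, Cdk6 and Cdkn2c did not pass. Only the call for Cdkn2d held under all 19 alternative fits. Those for Cdkn1b, Cdk2 and Cdk4 held under 12, 11 and 6 of them.

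All 10 genes passed the filter on low counts, and their counts ran from 183 for Ccne2 to 15864 for Ccnd2 in a sample. Libraries held 6120030 to 7162036 counts. Levels are counts scaled to the size of the library after TMM adjustment (CPM), and since the kit reads the 3′ end of each transcript, about once per transcript, they were not divided by gene length. The sort was checked against markers. Kit, the receptor used for it, stood at 153 to 252 CPM across the 8 samples, but the myeloid granule genes Mpo and Elane did not exceed 4.77 and 4.34 CPM, and the erythroid gene Car1 stood at 2427 to 4144 CPM. Granule gene RNA of myeloid progenitors was thus nearly absent from cells labelled AML, and erythroid RNA was abundant in both groups. Of the mature myeloid markers, Itgam and Ly6g did not exceed 0.61 and 0.72 CPM, while S100a8 ran from 5.90 to 76.0 CPM and S100a9 from 4.35 to 70.7 CPM, highest in AG636 samples 2 and 4. In bulk RNA, fewer cells of a type and less RNA per cell cannot be told apart.

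The 250 bases before the RefSeq start site are shown for the 4 genes that changed. The kinases that fell can thus be read against the inhibitors that rose. Sequences are from RefSeq (GRCm38.p6), 5′ to 3′ on the strand of the gene, with matches to the motifs named here in capitals. The Cdk4 sequence (chr10:127063285-127063534, plus strand) holds the E-box CACGTG, which Myc and related factors bind, 4 times, and the Cdk2 sequence (chr10:128705052-128705301, minus strand) holds 1 E2F-type site. The sequences of Cdkn1b (chr6:134920151-134920400, plus strand) and Cdkn2d (chr9:21291210-21291459, minus strand) hold none of the motifs searched. The RefSeq start of Cdkn2d lies inside the gene as counted here, whose 5′ end is at 21291407. Most of the 250 bases shown for Cdkn2d thus lie within the counted gene, not before it.
Cdk4: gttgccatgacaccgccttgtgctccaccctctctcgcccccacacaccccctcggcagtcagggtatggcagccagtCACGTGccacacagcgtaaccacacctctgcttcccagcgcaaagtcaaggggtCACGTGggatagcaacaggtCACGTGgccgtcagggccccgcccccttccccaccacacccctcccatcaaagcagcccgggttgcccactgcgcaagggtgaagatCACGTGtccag
Cdk2: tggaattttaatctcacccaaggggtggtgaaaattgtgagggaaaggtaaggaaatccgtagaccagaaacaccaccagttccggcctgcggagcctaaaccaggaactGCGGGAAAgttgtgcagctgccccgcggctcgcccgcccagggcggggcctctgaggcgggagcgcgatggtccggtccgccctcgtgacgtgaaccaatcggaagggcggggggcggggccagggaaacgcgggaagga
Cdkn1b: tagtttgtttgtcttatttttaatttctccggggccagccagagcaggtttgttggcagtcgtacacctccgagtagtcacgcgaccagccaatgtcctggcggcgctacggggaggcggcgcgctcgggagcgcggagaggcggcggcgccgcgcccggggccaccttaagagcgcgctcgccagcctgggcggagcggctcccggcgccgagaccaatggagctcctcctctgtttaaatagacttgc
Cdkn2d: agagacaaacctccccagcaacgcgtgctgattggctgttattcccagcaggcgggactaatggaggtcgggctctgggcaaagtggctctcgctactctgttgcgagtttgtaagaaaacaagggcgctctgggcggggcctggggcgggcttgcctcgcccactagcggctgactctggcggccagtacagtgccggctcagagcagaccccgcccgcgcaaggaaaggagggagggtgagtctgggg

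The motifs were chosen with the results known and searched on both strands, in windows that run on for 50 bases past the start. The E-box, which reads the same on both strands, was in 7.15% of the 32851 mouse windows of that kind, and only 8 windows held 4 or more copies. In Cdk4 the copies begin 172, 118, 98 and 11 bases before the start. Windows were matched for 8 of the 10 genes, not for Ccnd2 and Ccne2, and Cdkn2c and Ccnd3 had more than 1 each. The E-box was also found in that of Cdk6. In Cdkn2c it was found in only 1 of the windows, past the start. The E2F forms TTTCGCGC, TTTGGCGC, TTTCCCGC and TTTGCCGC were in 2.26% of windows and, among the members, in that of Cdk2 alone. The FOXO form GTAAACA, in 3.65% of windows, was found in 1 of those of Ccnd3. The YY1 form AAGATGGC, in 2.75%, was found in none of the members' windows. These matches describe letters, not binding.

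**Figure D1:**
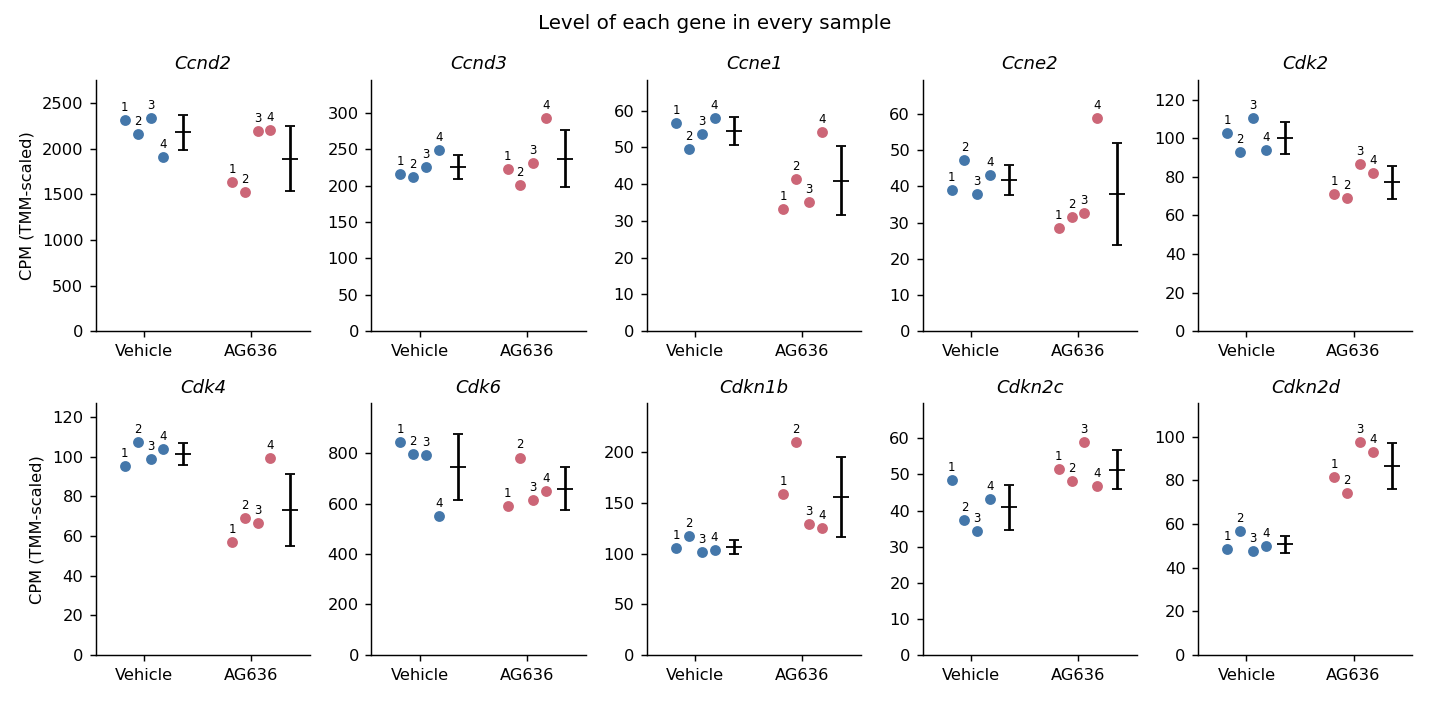
Level of each of the 10 genes in every sample, in CPM scaled by TMM factors, with an axis from 0 for each gene. Points are samples and bars the mean of 4 samples with its SD. Cdkn2d, Cdkn1b and Cdk2 have no overlap between Vehicle and AG636, and the Cdk4 level of AG636 sample 4 lies among the Vehicle samples.

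Cdk4 (ENSMUSG00000006728, chr10:127063534-127067920, plus strand), the kinase partner of the D-type cyclins, fell in AG636. Its level was 95.4, 107, 98.6 and 104 CPM in Vehicle samples 1 to 4 and 57.1, 69.1, 66.5 and 99.2 CPM in AG636 samples 1 to 4. AG636 samples 1 to 3 lay below every Vehicle sample, and AG636 sample 4 lay within the Vehicle range. The mean went from 101 ± 5.36 to 73.0 ± 18.2 CPM (SD, n = 4 each; log2 fold change −0.50, SE 0.15, 95% interval −0.82 to −0.18, adjusted p = 0.0434, limma-voom). Without AG636 sample 4 the difference was larger, at −0.64 with an adjusted p of 0.0041. The call was lost when AG636 sample 1, 2 or 3 or any 1 Vehicle sample was left out, with adjusted p-values up to 0.106, in edgeR's quasi-likelihood test (adjusted p = 0.0544) and with libraries scaled by size alone. Cdk4 was called in 6 of all 19 alternatives, over which the adjusted p ran from 0.0041 to 0.125 and the direction held. Exons of Cdk4 share 641 bases with those of Tspan31 on the other strand, whose level was 27.0 ± 2.45 CPM in Vehicle and 25.4 ± 4.01 CPM in AG636 (log2 fold change −0.10, adjusted p = 0.677).

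Cdk2 (ENSMUSG00000025358, chr10:128697939-128705031, minus strand), the partner of the E-type cyclins, was lower in every AG636 sample than in any Vehicle sample. Vehicle samples 1 to 4 had 103, 93.1, 110.5 and 94.0 CPM and AG636 samples 1 to 4 70.9, 69.1, 86.5 and 82.0 CPM. The narrow gap lay between Vehicle sample 2 and AG636 sample 3. Mean levels were 100.1 ± 8.17 and 77.1 ± 8.44 CPM (SD, n = 4 each; log2 fold change −0.38, SE 0.10, 95% interval −0.60 to −0.16, adjusted p = 0.0325, limma-voom). The adjusted p rose above 0.05 without AG636 sample 1 or 2 or any 1 Vehicle sample, reaching 0.103 without Vehicle sample 3, while the log2 fold change stayed between −0.44 and −0.33. It was also above 0.05 with libraries scaled by size alone. Groups that do not overlap were found for 3 of the 10 genes, 2 higher and 1 lower in AG636, against 22.2% of all genes tested, of which 9.35% were higher and 12.9% lower.

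Cdk6 (ENSMUSG00000040274, chr5:3341485-3531008, plus strand), the other kinase that binds D-type cyclins, was the most abundant kinase of the 3. Its level was 845, 795, 791 and 549.5 CPM in Vehicle and 591, 783, 614 and 649 CPM in AG636 samples 1 to 4. Vehicle sample 4 was the lowest of all 8, below every AG636 sample, and the groups overlapped. Mean levels were 745 ± 133 and 659 ± 85.6 CPM (SD, n = 4 each; log2 fold change −0.17, SE 0.14, 95% interval −0.48 to 0.15, adjusted p = 0.467, limma-voom). The difference did not pass the test, and its interval holds the fall measured for Cdk2. Gm17590, on the other strand, shares 368 exon bases with Cdk6 and was itself at 3.37 CPM in Vehicle and 6.90 CPM in AG636 (log2 fold change 1.07, adjusted p = 0.0304).

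Cdkn2d (ENSMUSG00000096472, chr9:21288410-21291407, minus strand), the INK4 inhibitor p19Ink4d, showed the largest difference among the 10 genes. Its level was 48.7, 56.6, 47.5 and 49.9 CPM in Vehicle samples 1 to 4 and 81.6, 74.4, 97.7 and 93.1 CPM in AG636 samples 1 to 4. Every AG636 sample lay above every Vehicle sample. Mean levels were 50.7 ± 4.05 and 86.7 ± 10.6 CPM (SD, n = 4 each; log2 fold change 0.77, SE 0.11, 95% interval 0.53 to 1.01, adjusted p = 0.00263, limma-voom). With any 1 sample left out, the log2 fold change was 0.71 to 0.84 and the adjusted p at most 0.0158.

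Cdkn1b (ENSMUSG00000003031, chr6:134920401-134925513, plus strand), which encodes the Cdk2 inhibitor p27Kip1, also rose. Vehicle samples 1 to 4 had 105, 117, 102 and 103 CPM and AG636 samples 1 to 4 159, 211, 129 and 125 CPM. The groups did not overlap, but the AG636 samples were spread more widely, with sample 2 the highest and sample 4 the lowest. Mean levels were 107 ± 6.96 and 156 ± 39.3 CPM (SD, n = 4 each; log2 fold change 0.52, SE 0.15, 95% interval 0.19 to 0.85, adjusted p = 0.0436, limma-voom). Without AG636 sample 2 the log2 fold change was 0.36 (adjusted p = 0.0504), and the call was also lost without AG636 sample 1 or any 1 Vehicle sample, with adjusted p-values up to 0.120.

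Cdkn2c (ENSMUSG00000028551, chr4:109660876-109667189, minus strand), which encodes the INK4 protein p18Ink4c, did not pass. Vehicle samples 1 to 4 had 48.4, 37.5, 34.4 and 43.2 CPM and AG636 samples 1 to 4 51.5, 48.2, 59.0 and 46.7 CPM. Only Vehicle sample 1 reached into the AG636 range. Mean levels were 40.9 ± 6.20 and 51.4 ± 5.50 CPM (SD, n = 4 each; log2 fold change 0.33, SE 0.13, 95% interval 0.05 to 0.61, adjusted p = 0.102, limma-voom).

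Ccnd2 (ENSMUSG00000000184, chr6:127125162-127152193, minus strand), a D-type cyclin, had the highest level of the 10 genes in every sample. It stood at 2311, 2161, 2337 and 1909 CPM in Vehicle and at 1634, 1531, 2197 and 2208 CPM in AG636 samples 1 to 4. AG636 samples 1 and 2 were below all Vehicle samples, and AG636 samples 3 and 4 lay among them. Mean levels were 2179 ± 196 and 1893 ± 361 CPM (SD, n = 4 each; log2 fold change −0.22, SE 0.13, 95% interval −0.51 to 0.08, adjusted p = 0.297, limma-voom). The difference did not pass the test.

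Ccnd3 (ENSMUSG00000034165, chr17:47505051-47599691, plus strand), the other D-type cyclin measured, stood far below Ccnd2. Its level was 216, 212, 226 and 248 CPM in Vehicle and 223, 201, 231 and 293 CPM in AG636 samples 1 to 4. The groups overlapped throughout, and AG636 sample 4 was the highest. Mean levels were 226 ± 16.3 and 237 ± 39.3 CPM (SD, n = 4 each; log2 fold change 0.06, SE 0.11, 95% interval −0.19 to 0.31, adjusted p = 0.765, limma-voom). Without AG636 sample 4 the log2 fold change was −0.03. The nucleolar gene Bysl shares 361 exon bases with Ccnd3 on the other strand and fell from 41.1 ± 3.03 to 28.5 ± 6.02 CPM (log2 fold change −0.54, adjusted p = 0.028).

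Ccne1 (ENSMUSG00000002068, chr7:38097984-38107534, minus strand), an E-type cyclin, had 56.7, 49.5, 53.5 and 58.0 CPM in Vehicle and 33.1, 41.5, 35.1 and 54.2 CPM in AG636 samples 1 to 4. AG636 samples 1 to 3 were below all Vehicle samples and AG636 sample 4 was among them. Mean levels were 54.4 ± 3.77 and 41.0 ± 9.51 CPM (SD, n = 4 each; log2 fold change −0.43, SE 0.14, 95% interval −0.75 to −0.11, adjusted p = 0.0721, limma-voom). The difference did not pass with all samples and passed without AG636 sample 4 (log2 fold change −0.56, adjusted p = 0.0124).

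Ccne2 (ENSMUSG00000028212, chr4:11191351-11204779, plus strand), the second E-type cyclin, had the lowest count of the 10 genes in any sample. Vehicle samples 1 to 4 had 39.0, 47.2, 37.9 and 43.1 CPM and AG636 samples 1 to 4 28.5, 31.6, 32.6 and 58.8 CPM. AG636 samples 1 to 3 were below all Vehicle samples and AG636 sample 4 was above them all. Mean levels were 41.8 ± 4.21 and 37.9 ± 14.1 CPM (SD, n = 4 each; log2 fold change −0.19, SE 0.20, 95% interval −0.63 to 0.25, adjusted p = 0.560, limma-voom). It passed only without AG636 sample 4 (log2 fold change −0.42, adjusted p = 0.0419). Ints8, on the other strand, shares 609 exon bases with Ccne2 and did not pass (log2 fold change 0.11, adjusted p = 0.754).

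**Figure D2:**
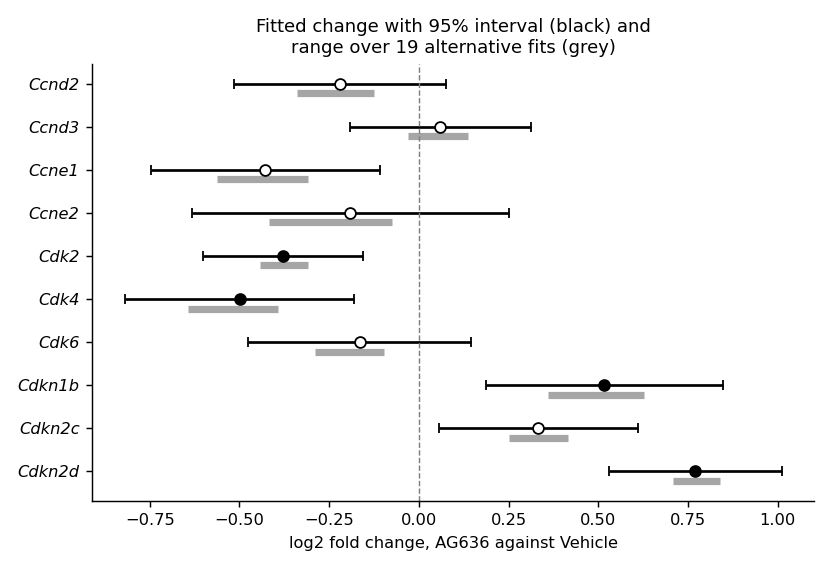
Fitted log2 fold change of each gene, AG636 against Vehicle, with its 95% interval in black and the range over 19 alternative fits in grey. The interval of Cdkn2d, 0.53 to 1.01, lies farthest from 0, and the ranges of the alternatives cross 0 for Ccnd3.

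In Vehicle, levels fell in the order Ccnd2, Cdk6, Ccnd3, then Cdkn1b, Cdk4 and Cdk2, then Ccne1 and Cdkn2d, then Ccne2 and Cdkn2c. Neighbours within each of the last 3 groups had overlapping ranges over samples. In AG636 the order was Ccnd2, Cdk6, Ccnd3, Cdkn1b, Cdkn2d, Cdk2, Cdk4, Cdkn2c, Ccne1 and Ccne2. Ccnd3 and Cdkn1b overlapped there, as did each neighbouring pair from Cdkn2d downward. The mean of Cdkn2d stood below those of Cdk4 and Cdk2 in Vehicle and above them in AG636.

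Unequal change was examined by 6 ratios of counts within a sample, which do not depend on library scaling. The log2 ratio of Cdk2 to its inhibitor Cdkn1b was −0.03, −0.33, 0.12 and −0.13 in Vehicle samples 1 to 4 and −1.16, −1.61, −0.58 and −0.61 in AG636 samples 1 to 4. All AG636 samples were below all Vehicle samples, as the levels of both genes already required. The difference of −0.90 had the smallest p that the exact permutation test over 70 relabellings can give (p = 0.0286, two-sided, adjusted p = 0.0857 over 6 ratios). As a plain ratio, 0.795 to 1.08 counts of Cdk2 were read per count of Cdkn1b in Vehicle and 0.329 to 0.669 in AG636.

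The INK4 genes Cdkn2d and Cdkn2c were compared in the same way. The log2 ratio of Cdkn2d to Cdkn2c was 0.01, 0.59, 0.47 and 0.21 in Vehicle and 0.66, 0.62, 0.73 and 0.99 in AG636 samples 1 to 4. The groups did not overlap, with a gap of small size between Vehicle sample 2 and AG636 sample 2. The difference was 0.43 (exact permutation p = 0.0286, adjusted p = 0.0857). After adjustment no ratio passed 0.05. With 6 ratios and a smallest possible p of 0.0286, a ratio that separated the groups could pass only if most of the others did too. The adjusted p thus cannot decide whether these ratios changed.

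The remaining ratios overlapped between the groups. That of Ccnd3 to Ccnd2 differed by 0.28 (exact permutation p = 0.0571, adjusted p = 0.114), and that of Cdk6 to Cdk4 by 0.34 (exact permutation p = 0.200, adjusted p = 0.274). Ccne2 to Ccne1 differed by 0.23 (exact permutation p = 0.229, adjusted p = 0.274). The summed D-type against summed E-type cyclins differed by 0.14 (exact permutation p = 0.514, adjusted p = 0.514), and without Vehicle sample 4 and AG636 sample 3 this difference was −0.07.

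**Figure D3:**
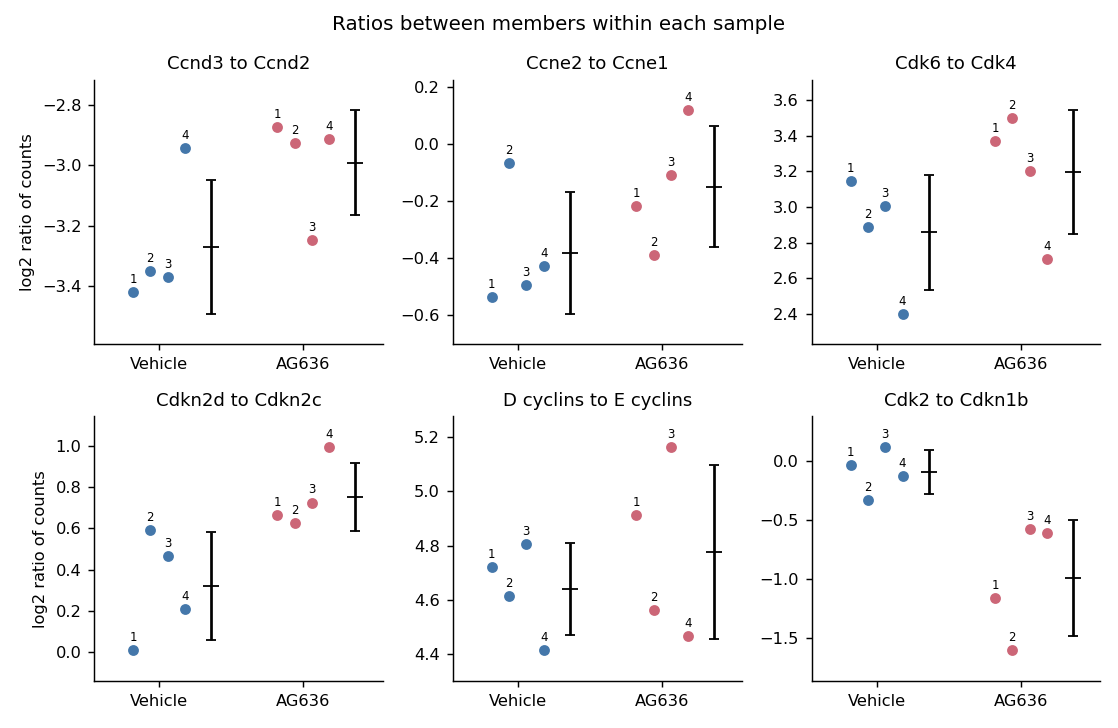
Log2 ratio of counts between members within each sample, for 6 ratios. Points are samples and bars the mean of 4 samples with its SD. Cdk2 to Cdkn1b and Cdkn2d to Cdkn2c separate the groups, and the remaining 4 ratios overlap.

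The genes around this machinery were read from lists of 86 genes, of which 80 were tested. In all 27 were called, 11 higher and 16 lower, and 12 of these calls held under all 19 alternatives. Of all genes tested, 14.0% were called, 5.47% higher and 8.49% lower. Of the 13 pRB and E2F family genes, 2 rose and 3 fell, with a median log2 fold change of −0.19 against −0.01 for all genes tested. Values in parentheses for these lists are log2 fold changes with limma-voom p-values adjusted over all genes. Rb1, which encodes pRB, rose (0.54, adjusted p = 0.0103), as did its relative Rbl2 (0.43, adjusted p = 0.0123). Tfdp1, a dimer partner of E2F factors, fell (−0.47, adjusted p = 0.00581). So did E2f6, a repressive family member (−0.72, adjusted p = 0.0141, called in 18 of 19 alternatives, not without both Vehicle sample 4 and AG636 sample 3), and E2f4 (−0.46, adjusted p = 0.0446, called in 6 of 19). The E2f4 call was lost without any 1 sample other than AG636 sample 4, with an adjusted p up to 0.121.

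E2F target genes of the start of S phase lay mostly lower in AG636. Of 22 tested, 9 fell and none rose, where 8.49% of all genes tested were called lower. Of the 22, 21 had a log2 fold change below 0. The exception, Ccna2, the cyclin of S phase and early mitosis, stood at 0.32. The list's median was −0.34. Cdt1, which loads the replicative helicase, fell from 166 ± 8.05 to 102 ± 11.1 CPM (−0.71, adjusted p = 0.00214). Orc1, a subunit of the origin recognition complex, fell (−0.87, adjusted p = 0.00823), and so did the helicase subunits Mcm5 (−0.66, adjusted p = 0.00469), Mcm3 (−0.51, adjusted p = 0.00694) and Mcm4 (−0.50, adjusted p = 0.00565). These 5 genes and Tyms, the thymidylate synthase (−0.59, adjusted p = 0.0160), were called in all 19 alternatives. Uhrf1 and Mcm2 were called in 12 and 10 of them, and both calls were lost without AG636 sample 1 or 2 or any 1 Vehicle sample, and that of Mcm2 also without AG636 sample 3, with adjusted p-values up to 0.103 and 0.0976. The count of genes that fell was 13 without AG636 sample 4 and 6 without AG636 sample 1, Vehicle sample 3 or Vehicle sample 4, and 1 gene rose without Vehicle sample 4.

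Genes of G2 and mitosis went the other way. All 15 tested had a log2 fold change above 0, with a median of 0.29, and 6 rose: Aurka, Ccnb2, Cdc20, Cdc25b, Ccnb1 and Plk1. Of all genes tested, 5.47% were called higher. Cdc25b, a phosphatase that activates mitotic kinase, was called in all 19 alternatives (0.49, adjusted p = 0.00757). The mitotic kinase Aurka (0.58, adjusted p = 0.0283) and the cyclin Ccnb2 (0.58, adjusted p = 0.0198) lost their calls without Vehicle sample 1, 2 or 3, and Aurka also without AG636 sample 1, with adjusted p-values up to 0.0959 and 0.0674. Log2 fold changes were 0.55 for Cdc20, 0.45 for Ccnb1 and 0.39 for Plk1. This count depended on single samples: it was 1 without Vehicle sample 1, 2 or 3 and 2 without AG636 sample 1. Vehicle sample 4 had a median difference of 0.27 from the Vehicle mean over these genes, near the 0.27 to 0.45 of the AG636 samples.

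Among the kinase activators and chaperones, the phosphatase Cdc25a, which activates Cdk2, fell (−0.45, adjusted p = 0.0116, called in all 19 alternatives). Hsp90ab1, a chaperone of Cdk4, fell (−0.50, adjusted p = 0.0209, called in 15), and Mnat1, an assembly factor of the Cdk-activating kinase, rose (0.38, adjusted p = 0.0365, called in 10). Of 12 genes for protein turnover, Fzr1, an activator of the anaphase-promoting complex, rose (0.53, adjusted p = 0.0149, called in 17). Skp1, a subunit of the ligase that marks p27Kip1 for destruction, fell (−0.33, adjusted p = 0.0124, called in 18). These 2 calls of 12 are near the 14.0% called of all genes tested. Of 8 transcription factors tested, Myc fell from 97.6 ± 19.3 to 56.6 ± 7.12 CPM (−0.77, adjusted p = 0.00867, called in all 19). Foxo3, a factor known to act on Cdkn1b, rose (0.43, adjusted p = 0.0378, called in 12). The calls of Hsp90ab1, Mnat1, Fzr1, Skp1 and Foxo3 were lost without Vehicle sample 3, and all but that of Skp1 without Vehicle sample 1. Hsp90ab1 was also lost without AG636 sample 1 or Vehicle sample 2, Mnat1 without AG636 sample 2, 3 or 4 or Vehicle sample 4, and Foxo3 without AG636 sample 2 or 4 or Vehicle sample 2 or 4. Their highest adjusted p-values over the alternatives were 0.069, 0.106, 0.055, 0.0526 and 0.0925.

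Other inhibitors of the same families gave no call. Cdkn1a, the CIP/KIP gene for p21, was at 123, 68.9, 113 and 35.1 CPM in Vehicle and 88.5, 58.3, 263 and 236 CPM in AG636 samples 1 to 4. AG636 samples 3 and 4 were above all Vehicle samples and samples 1 and 2 were not (log2 fold change 0.81, SE 0.51, adjusted p = 0.308). Cdkn1c, another CIP/KIP gene, was at 2.62, 1.69, 2.01 and 1.83 CPM in Vehicle and 2.33, 2.55, 5.59 and 2.60 CPM in AG636 samples 1 to 4, with overlapping groups (log2 fold change 0.58, SE 0.34, adjusted p = 0.284). The third D-type cyclin, Ccnd1, with at most 15 counts in a sample, and Cdkn2b, with at most 6, were below the filter.

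**Figure D4:**
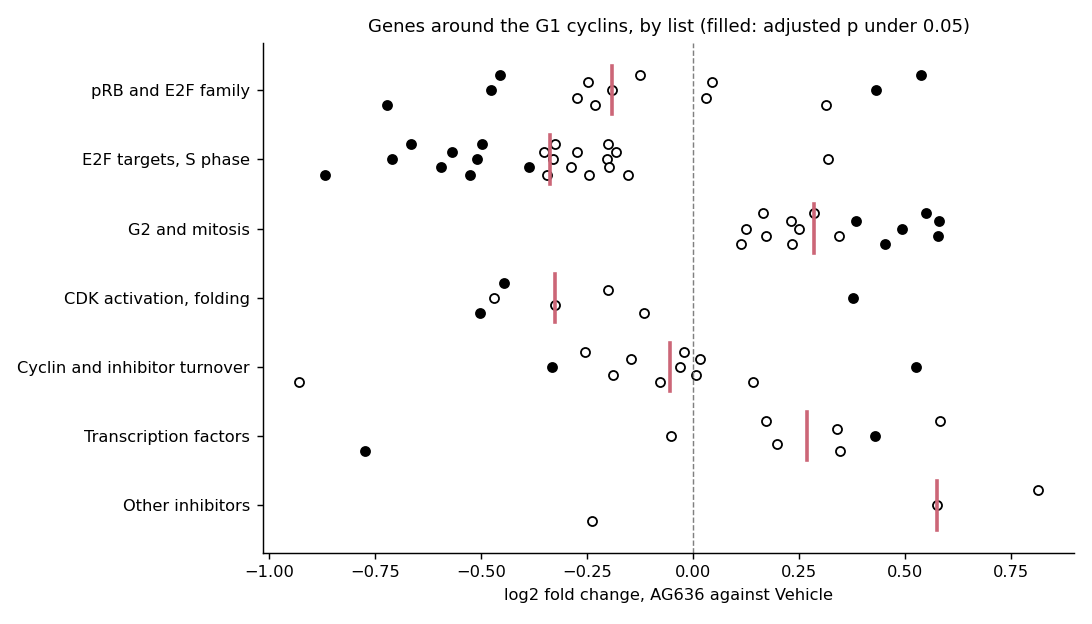
Log2 fold change of each tested gene around the G1 cyclins, AG636 against Vehicle, by list, with filled points where the adjusted p was under 0.05. The 22 E2F target genes centre on −0.34 and the 15 genes of G2 and mitosis on 0.29.

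AG636 samples differed in their median difference from the Vehicle mean. Over the 10 members it was −0.36, −0.27, −0.09 and 0.11 on the log2 scale in AG636 samples 1 to 4. Of these members 4 had a log2 fold change above 0 and 6 below, so rises and falls offset each other and this median is not a distance. Over the E2F targets, mostly lower, it was −0.53, −0.43, −0.35 and −0.08, so that sample 4 lay nearest to Vehicle for that list. Over the kinase activators and chaperones sample 3 lay nearest, at −0.15 against −0.24 in sample 4. The Cdkn2d level of AG636 sample 4, 93.1 CPM, was above those of AG636 samples 1 and 2.

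Markers of other cells varied beside these values. The summed level of 8 B cell markers was 44.7 to 87.3 CPM in Vehicle and 47.2 to 335 CPM in AG636, with AG636 samples 1 and 4 the highest, and 1 of them, Cd79a, rose. Sums for 10 erythroid markers ran from 6252 to 10220 CPM in Vehicle and from 8797 to 10744 CPM in AG636, and 1, Hbb-bt, rose. For 12 mature myeloid markers the ranges were 56.8 to 111 and 31.0 to 204 CPM, for 10 T and NK cell markers 11.3 to 17.3 and 12.9 to 28.6 CPM, and for 5 megakaryocyte markers 12.0 to 18.1 and 13.1 to 61.0 CPM. The 6 stromal and endothelial markers summed to at most 4.63 CPM, with Cxcl12 at 0 in every sample. The 7 progenitor markers summed to 167 to 203 CPM in Vehicle and 178 to 296 CPM in AG636. Most of that sum was Kit, the receptor used for the sort, at 155 to 177 CPM in Vehicle and 153 to 252 CPM in AG636. In AG636 samples 1 to 4, beside the Cdkn1b levels given above, the B cell sum was 335, 76.1, 47.2 and 230 CPM. The part of other cells in the results was not tested.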

How the data were processed

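RNA was measured in 8 samples, 4 Vehicle and 4 AG636, grouped by their titles. The deposited values were raw counts per gene, which the authors made from QuantSeq 3′ reads by trimming with cutadapt (1.9.1), mapping to mm10 (GRCm38) with HISAT2 (2.0.4) and counting with featureCounts of Subread (1.5.0-p3), versions as in the submitters' processing notes. The methods of the study name other versions. How strand, multiple hits and overlapping genes were handled is not given in the sources used here, so genes that share exons with a gene on the other strand are uncertain. Libraries held 6120030 to 7162036 counts. Every pair of replicates differed by more than sampling noise.

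The default filterByExpr rule (minimum count 10) left 10911 genes, which were scaled by TMM in edgeR (4.0.16) and fitted with voom in limma (3.58.1, under R 4.3.3) with group as the only term, since the study names limma. Tests were two-sided, with Benjamini-Hochberg adjustment over all genes and a threshold of 0.05. Ratios of counts, with 0.5 added, were tested by exact permutation (two-sided, 70 relabellings). Alternatives were DESeq2 (1.42.0), the quasi-likelihood test of edgeR, limma-trend, sample quality weights, other scalings and filters, and a block for the replicate number. Others were no mitochondrial genes, 1 sample left out at a time, and Vehicle 4 and AG636 3 left out together. All members were to be described, and genes of the pathway lists named where they passed, or the 2 of smallest p where none did. Members, lists, tests and motifs were chosen with earlier results of these data known. Identifiers were matched to symbols by a name table, and Cdk3 was not matched. 1 gene of the lists is counted but not reported by name here. All members had the same coordinates in GENCODE M21.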

Additional observations from a re-analysis of the deposited data

Results flagged for a closer look

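In 10 of the 92 combinations of a value and a group of 4 samples, 1 sample lay far from the other 3 by Dixon's criterion at the 95% level, where chance gives about 4.6. Among the members, Ccne2 was at 58.8 CPM in AG636 sample 4 and at 28.5 to 32.6 CPM in the other AG636 samples. The log2 ratio of Ccnd3 to Ccnd2 was −2.94 in Vehicle sample 4, where the other 3 had −3.42 to −3.35. It was −3.25 in AG636 sample 3, where the other 3 had −2.93 to −2.87.

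Among the surrounding genes, AG636 sample 4 had the highest E2f4 level of its group, 80.9 CPM against 56.3 to 59.4 CPM, and the highest Mcm2 level, 242 CPM against 175 to 186 CPM. Vehicle sample 4 stood apart for E2f4 (103 CPM against 79.3 to 83.2), Tyms (157 CPM against 128 to 132) and Aurka (95.8 CPM against 59.4 to 61.9). In AG636 sample 1, Ccnb2 was at 422 CPM against 269 to 293 CPM, and in AG636 sample 2, Tfdp1 was at 77.4 CPM against 83.0 to 83.9 CPM.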

How the results depend on the processing

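Of the 10 members 4 were called in the comparison as reported, 2 with libraries scaled by size alone, 1 without a filter, and 1 to 6 when 1 sample was left out. The count was 1 without AG636 sample 1 or 2 or any 1 Vehicle sample, 3 without AG636 sample 3 and 6 without AG636 sample 4, so that only Cdkn2d was called in every fit. The count of pathway genes, 27, ran from 13 (without Vehicle sample 3) to 30 (without AG636 sample 4), and was 15 without Vehicle sample 1 and 17 without Vehicle sample 2. That of all genes, 1523, ran from 688 (without Vehicle sample 3) to 1706 (without AG636 sample 3), and was 798, 918 and 1010 without Vehicle samples 1, 2 and 4. With the replicate number as a block, 4 members, 28 pathway genes and 1446 genes were called. Samples of the same number did not deviate together, with correlations of −0.14, 0.01, 0.20 and 0.14, so the numbers were not taken as pairs, and the block gave a smallest possible p of 0.125 for the ratios. Without Vehicle sample 4 and AG636 sample 3 together, 3 members, 27 pathway genes and 1545 genes were called. No called value changed direction. Ratios kept their direction with 2 counts in place of 0.5 and with each sample left out, where Cdk2 to Cdkn1b differed by −1.03 to −0.69 and Cdkn2d to Cdkn2c by 0.33 to 0.52. Why single samples moved the counts was not tested. Ccne2 had the largest SE of a log2 fold change among the members, 0.20, and a lowest count of 183. Ccne1 and Cdkn2c, with lowest counts of 213 and 222, had SEs of 0.14 and 0.13.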
